A study of Mus musculus with 2 samples.

Results

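The nuclear factor I (NFI) family has 4 genes in the mouse, Nfia, Nfib, Nfic and Nfix, which encode DNA-binding transcription factors of one fold. The members were chosen by symbol and are 4 of the 32285 genes listed in both matrices. NFI proteins bind DNA as homodimers or heterodimers at a palindrome of the motif TTGGC, and a single motif is bound more weakly. In limb muscle, Nfix is known for its part in the change from the embryonic to the foetal muscle programme, in which genes of mature fibres are switched on and the slow myosin gene Myh7 is held down. Nfia is known for the start of gliogenesis in the spinal cord, Nfib for lung and brain maturation, and Nfic for tooth root formation.

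Single-cell RNA sequencing was done on limb skeletal muscle tissue of wild-type C57Bl/6 mouse embryos aged E12.5 (embryonic days) or E15.5, each age as 1 library. The labels name no treatment, and the 2 groups differ by age alone in them. Per the labels, forelimbs and hindlimbs went into each library, and the cells were freed mechanically and with trypsin. The number and the sex of the embryos pooled are not stated in the labels.

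The E12.5 library had 12941 barcodes and 34907675 UMIs, and the E15.5 library had 5780 barcodes and 46966083 UMIs. A UMI, a unique molecular identifier, marks one captured RNA molecule. After filtering, 11001 and 3916 cells were left, with medians of 2322 and 9336 UMIs. The libraries shared 17 barcode sequences. Cell classes were rebuilt by clustering from markers, so each is a muscle-like, cartilage-like or other like class, named below by the tissue alone. All markers of the muscle, mesenchyme, cartilage, tendon, endothelial and Schwann lists had UMIs in their own class at both ages. The tissue was not muscle alone: muscle cells made up 5.53% of cells at E12.5 against 10.1% at E15.5, and mesenchyme cells 74.7% and 38.3%. Clusters that took no class held 1.85% and 24.4% of cells, so the older classes are less complete. The 4 members were kept out of the genes used for clustering, so their levels did not shape the classes.

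Levels are in CPM, a gene's share of all UMIs of a class, scaled to the same total in every class, and square brackets give 95% intervals. Where a pair of values carries no age, E12.5 comes first. The kit reads the 3-prime end and counts molecules, so levels of different members are compared without division by length. With 1 library per age there is no replicate and no test between ages. Every interval covers counting error only, and a difference between the libraries cannot be told apart from a difference between the ages.

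Nfia lies at chr4:97772734-98118874 on the plus strand, Nfib at chr4:82290173-82705750 on the minus strand, Nfic at chr10:81396186-81455635 on the minus strand and Nfix at chr8:84699876-84800344 on the minus strand (GRCm38, whole gene spans of GENCODE vM21). Their identifiers are ENSMUSG00000028565, ENSMUSG00000008575, ENSMUSG00000055053 and ENSMUSG00000001911. Genes on the opposite strand overlap each member. The most counted of them, Lyl1 in the Nfix span, had 229 UMIs in the younger library and 405 in the older, where Nfix had 4452 and 10451. The strand setting of the counting is not given in the sources used here.

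Since the members were higher together at the older age in several classes, their promoters were searched for the site that NFI proteins bind. RefSeq (GRCm38.p6) gave promoters for 3 of the 4 members, Nfia, Nfic and Nfix. The motif TTGGC, on either strand, was in 46.7% of 32851 promoters of 300 bases, so a match is common. The palindrome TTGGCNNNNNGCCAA was in 0.0365% of them (12 promoters) and in none of the members' promoters. The only window listed for Nfia and the only one for Nfic held no motif. At 3 of the 4 Nfix starts a motif was found, and at 2 of those it lay before the start. Upstream windows of 3 starts are shown, 5′ to 3′ on the gene's strand. They were picked as a window without the motif and windows with it in each orientation. Capitals mark the motif. They are Nfia at chr4:97581693-97581942 on the plus strand, and Nfix at chr8:84775829-84776078 and at chr8:84772876-84773125 on the minus strand. For Nfix, first and second below give the order shown, not the rank among its starts. The Nfix start furthest upstream, which held no motif, is not shown. The Nfia window lies before the Nfia span given above. The Nfic window and both Nfix windows lie inside the spans of their genes, at starts RefSeq lists. The starts of the gene spans themselves were not searched, so a lack of the motif holds for the listed windows only.

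Nfia: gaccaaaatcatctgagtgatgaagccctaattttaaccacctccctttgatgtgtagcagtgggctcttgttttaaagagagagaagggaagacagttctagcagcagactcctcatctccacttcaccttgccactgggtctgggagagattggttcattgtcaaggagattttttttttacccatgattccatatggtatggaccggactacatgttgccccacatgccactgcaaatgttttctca
Nfix upstream of the first start: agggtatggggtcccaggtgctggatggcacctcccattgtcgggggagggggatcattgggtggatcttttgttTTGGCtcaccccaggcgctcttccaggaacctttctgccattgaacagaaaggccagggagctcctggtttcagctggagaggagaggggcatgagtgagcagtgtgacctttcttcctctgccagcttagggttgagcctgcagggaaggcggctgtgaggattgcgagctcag
Nfix upstream of the second start: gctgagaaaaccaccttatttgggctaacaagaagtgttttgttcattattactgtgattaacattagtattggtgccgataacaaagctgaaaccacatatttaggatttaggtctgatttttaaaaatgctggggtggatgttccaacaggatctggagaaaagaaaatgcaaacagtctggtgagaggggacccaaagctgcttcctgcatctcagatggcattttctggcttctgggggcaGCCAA

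The first Nfix window holds the motif in its forward letters, 175 bases before the start, and the second holds the reverse letters directly before it. A match is a description of the letters, not evidence of binding.

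In muscle cells (608 and 395) all 4 members were higher at E15.5. Nfib was at 236 CPM [218, 256] at E12.5 against 504 CPM [486, 522] at E15.5. Nfia was at 63.0 CPM [53.6, 73.6] at E12.5 against 176 CPM [166, 187] at E15.5. These levels kept the same order at both ages, with Nfib highest, then Nfia, Nfix and Nfic. Nfix was at 32.9 CPM [26.2, 40.8] and then 98.9 CPM [91.1, 107]. Nfic was at 19.8 CPM [14.7, 26.1] and then 69.5 CPM [63.1, 76.4]. No member's interval at E12.5 overlapped that at E15.5.

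The log2 ratio of E15.5 over E12.5 in muscle was 1.81 [1.39, 2.26] for Nfic, 1.59 [1.25, 1.94] for Nfix, 1.48 [1.24, 1.73] for Nfia and 1.09 [0.97, 1.22] for Nfib. All 4 were past 2-fold, and the lower bound of Nfib was just under it. Of the 8770 genes with at least 10 CPM in muscle at either age, 3.26% were at least 2-fold higher at E15.5 and 17.7% at least 2-fold lower. The median gene had a log2 ratio of -0.38, so most genes were lower at E15.5 on this scale. Between 97.2% (Nfib) and 98.9% (Nfic) of the genes had a lower ratio than a member.

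The number of cells with a UMI depends on depth, so each cell with at least 2000 UMIs was thinned to that number and shallower cells were left out. In muscle 559 and 390 cells were kept and 49 and 5 left out. Nfib was then seen in 31.8% of the kept muscle cells [28.0%, 35.9%] at E12.5 against 56.4% [51.3%, 61.4%] at E15.5. Nfia was seen in 11.4% and then 29.0%, Nfix in 6.08% and then 21.8%, and Nfic in 2.68% and then 12.1%. Without thinning these shares were 46.9% and 90.4% for Nfib, 20.2% and 75.9% for Nfia, 11.3% and 69.4% for Nfix, and 7.40% and 53.2% for Nfic. At equal depth UMIs of exactly 2 members were seen in 6.44% of the E12.5 muscle cells against 26.4% at E15.5, and of none in 56.2% against 26.4%.

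Droplets take up free RNA, so blood-lineage classes were used to gauge the level a gene can reach without expression. That these classes lack the members was assumed and not tested. Mast cells at E15.5 (70 cells, median 17801 UMIs) had 10.8 CPM of Nfib, 7.44 of Nfia, 9.46 of Nfic and 6.08 of Nfix. After thinning, 2.86% of mast cells had an Nfib UMI, 1.43% an Nfic UMI and 1.43% an Nfix UMI, and 0 of 70 an Nfia UMI, which allows a share of up to 4.29%. All 4 shares in E15.5 muscle (median 14350 UMIs) were above these shares of mast cells. At E12.5 the immune class (20 cells, median 4593 UMIs) had 4 UMIs each of Nfib and Nfix and none of Nfia. Erythroid cells at E12.5 (42 cells, median 2521 UMIs) had 107 CPM of Nfib and 74.2 CPM [33.9, 141] of Nfix. Thinned, 13.9% [4.67%, 29.5%] of the 36 erythroid cells kept had an Nfix UMI and 2.78% an Nfic UMI, against 6.08% and 2.68% of muscle cells (median 3774 UMIs). The E12.5 shares of Nfix and Nfic in muscle are thus not above that of erythroid cells and are not read as expression here, so the ratios of these members start from a level not told from background. For Nfia the erythroid share was 8.33% [1.75%, 22.5%], which overlaps the 11.4% of muscle. For Nfib it was 16.7% [6.37%, 32.8%], which overlaps the 31.8% [28.0%, 35.9%] of muscle. In CPM the erythroid interval of Nfib, [57.0, 183], lay below that of muscle, [218, 256]. Erythroid barcodes also held mesenchyme markers, 750.0 CPM summed over 9 genes at E12.5 against 3396 CPM at E15.5, so they are not free of other cells' RNA. The 18 erythroid cells at E15.5 (median 13099 UMIs) had 87.8 CPM [56.3, 131] of Nfix and 54.9 CPM [30.7, 90.5] of Nfic. These overlap the muscle values of that age. Their 102 CPM [68.1, 148] of Nfia and 333 CPM [268, 409] of Nfib lay below muscle. Thinned, 38.9% [17.3%, 64.3%] of these cells had an Nfib UMI and 22.2% [6.41%, 47.6%] an Nfia UMI. For Nfix the share was 16.7% [3.58%, 41.4%] and for Nfic 0% [0%, 18.5%]. Each E15.5 muscle share lay inside the erythroid interval of its gene. By that measure no member in E15.5 muscle is told from erythroid cells. Which of the 2 classes shows the background better was not tested. Between the ages the erythroid log2 ratio was 1.64 [0.791, 2.599] for Nfib, 1.31 [-0.077, 3.04] for Nfia and 2.74 [0.035, 8.13] for Nfic. For Nfix it was 0.24 [-0.91, 1.53]. These ratios rest on 13, 5, 1 and 9 erythroid UMIs at E12.5, in that order. Each interval overlaps that of the muscle ratio of the same gene, so no muscle ratio is told from the erythroid one. The part of free RNA in the muscle ratios was not tested.

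**Figure D1:**
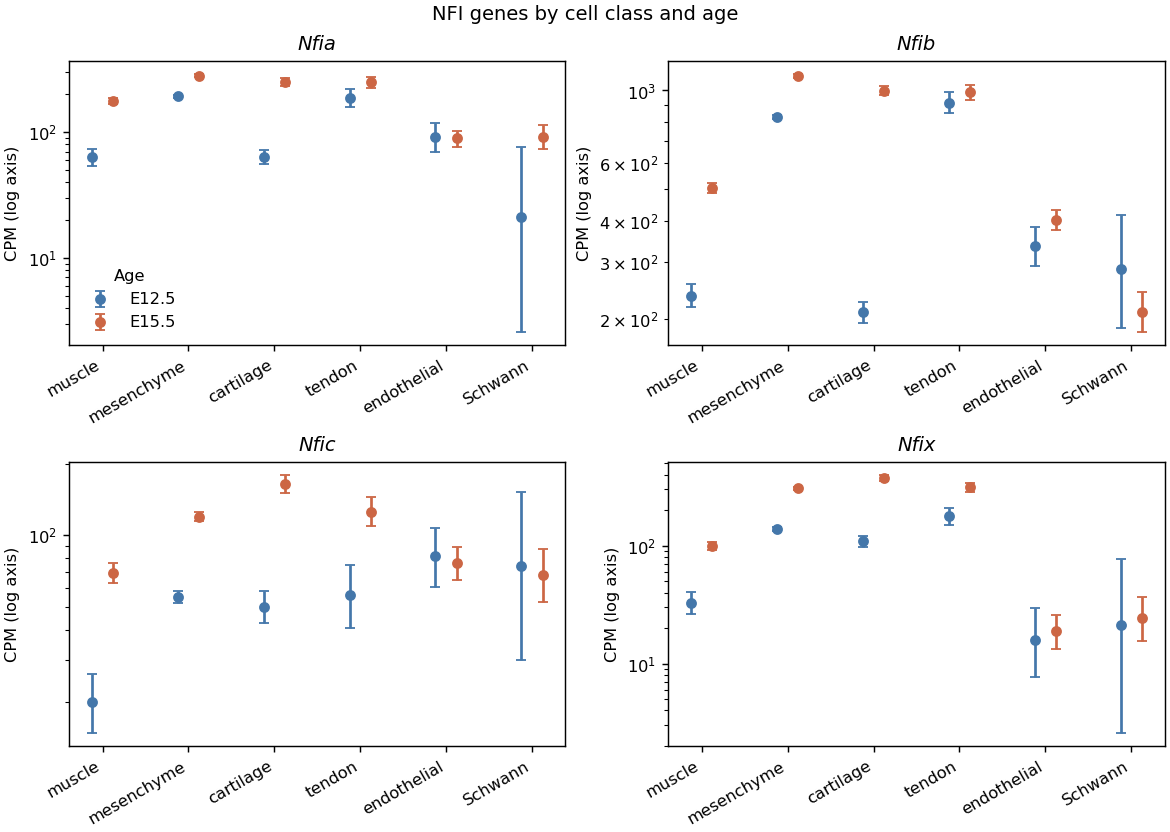
CPM of each NFI gene (log axes) in 6 cell classes at E12.5 (blue) and E15.5 (orange); points are class sums of 1 library and bars are 95% Poisson intervals. In muscle, mesenchyme and cartilage every orange point lies above its blue point, while endothelial points of the 2 ages lie close together.

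The muscle class was split by UMIs of the progenitor marker Pax7 and of Myog, the gene of the differentiation factor myogenin. Cells with a Pax7 UMI and no Myog UMI (Pax7 cells) were set beside cells with a Myog UMI (Myog cells). Nfib and Nfia at both ages, and Nfix at E15.5, were higher in the Pax7 cells. At E12.5 Nfib was at 349 CPM [307, 395] in 172 Pax7 cells and 129.9 CPM [110.2, 152] in 265 Myog cells. At E15.5 it was at 684 CPM [655, 714] in 196 Pax7 cells and 288 CPM [268, 309] in 165 Myog cells. Nfia was at 86.9 and 43.6 CPM at E12.5, and at 251 and 99.9 CPM at E15.5. Nfix was at 42.1 CPM [28.4, 60.0] against 20.1 CPM [12.9, 29.9] at E12.5, where the intervals overlap slightly, and at 115 and 81.8 CPM at E15.5. Its E12.5 level in muscle was not told from background, so no order is read from the E12.5 values.

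Nfic did not show that order at E12.5, with 16.8 CPM [8.69, 29.4] in Pax7 cells and 21.8 CPM [14.2, 31.9] in Myog cells. At E15.5 it was at 94.0 CPM [83.4, 106] against 40.0 CPM [32.8, 48.3]. The log2 ratio between ages of Nfic was 2.48 [1.66, 3.45] in Pax7 cells and 0.88 [0.25, 1.55] in Myog cells. For Nfix the order was the other way, 1.45 [0.91, 2.04] in Pax7 cells and 2.02 [1.41, 2.70] in Myog cells, with overlapping intervals. These Nfic and Nfix ratios start from E12.5 levels not told from background. Every member was higher at E15.5 in both kinds of cell, and also in the 171 and 34 cells with neither UMI. Pax7 and Myog UMIs cut a range of cells, not types, and a cell with few UMIs can miss either.

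**Figure D2:**
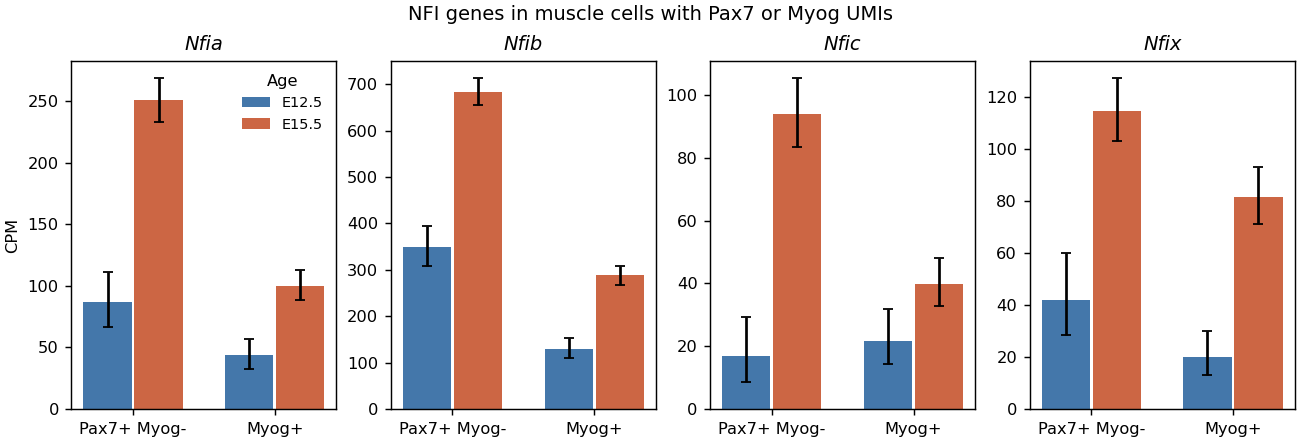
CPM of the 4 genes in muscle cells with a Pax7 UMI and no Myog UMI, and in those with a Myog UMI, at E12.5 (blue) and E15.5 (orange), with 95% Poisson intervals. Orange bars are the taller of each pair, and Nfib at E15.5 reaches 684 CPM in the Pax7 cells and 288 CPM in the Myog cells.

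Muscle clusters, paired between ages by their leading genes after their values were seen, showed the same split. Both clusters led by Msc and Pax7 at E12.5 had 326 and 328 CPM of Nfib, and both such clusters at E15.5 had 669 and 624 CPM. The cluster led by Myog and Mymx, the gene of a peptide needed for myoblast fusion, had 73.2 CPM [46.4, 110] of Nfib at E12.5, and the one led by Mymx and Myog at E15.5 had 96.9 CPM [77.1, 120]. Nfic in these same clusters was at 25.5 CPM [11.0, 50.2] against 18.9 CPM [10.8, 30.7], and Nfia at 35.0 CPM [17.5, 62.7] against 50.8 CPM [36.8, 68.5]. Nfix was at 12.7 CPM [3.47, 32.6], from 4 UMIs, and 69.7 CPM [53.1, 90.0]. In this pair the intervals of Nfix did not overlap between the ages, and those of the other members did. The E12.5 levels of Nfix and Nfic in muscle clusters are likewise not told from background. The other pairs differed from it. In the clusters led by Rbm24 and Myog (78 and 22 cells) Nfix was at 21.7 CPM [8.72, 44.7] against 87.6 CPM [62.0, 120.2], and the intervals of Nfia and Nfib did not overlap either. In those led by contractile genes, Myh3 and Myl4 or Mylpf and Tnnc2 (51 and 17 cells), Nfix was at 13.1 CPM [3.58, 33.6] against 49.3 CPM [30.9, 74.7], which overlap, and Nfia at 36.1 CPM [18.02, 64.6] against 98.7 CPM [71.7, 133], which do not. An unnamed E15.5 cluster of 94 cells with Gm42418 and Myog among its leading genes (median 1417 UMIs) stayed outside the muscle class and had 652 CPM of the family.

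Cells were also split by a UMI of Top2a or Mki67, genes of cycling cells, in cells of unequal depth. A shallow cell can miss both genes, so the split follows depth in part and does not tell cycling from resting cells. In muscle, cells with such a UMI had more Nfib than the others, 262 against 161 CPM at E12.5, with 556 against 298 CPM at E15.5. In mesenchyme they had less, 756 against 936 CPM at E12.5, with 1023 against 1195 CPM at E15.5. The Nfic ratio between ages in muscle was 2.08 [1.58, 2.63] in cells with such a UMI and 0.49 [-0.39, 1.45], an interval that includes 0, in the 182 and 94 cells without one.

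Values that moved with age in muscle stand beside these ratios. The 10 muscle markers summed to 3825 CPM at E12.5 against 2609 CPM at E15.5. The 9 mesenchyme markers, none at 0, summed to 345 and 502 CPM in muscle, against 3877 and 12888 CPM in mesenchyme itself. Ribosomal protein genes took 18.6% and 27.2% of muscle UMIs, and mitochondrial genes 3.87% and 4.39%. Their part in the result was not tested.

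Mesenchyme, the connective tissue progenitors and fibroblasts (8218 and 1498 cells), had higher levels of the family than muscle at both ages. The 4 members summed to 1218 and 1812 CPM, where muscle had 352 and 848 CPM. Nfib was at 832 CPM [819, 844] against 1106 CPM [1089.8, 1123]. Nfia was at 193 CPM [187, 199] against 281 CPM [273, 289].

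Nfix and Nfic differed more between the ages than the abundant members did. Nfix was at 139 CPM [134, 144] against 305 CPM [296, 314], below Nfia at E12.5 and above it at E15.5. Nfic was at 55.0 CPM [51.8, 58.4] against 119.7 CPM [114, 125]. The log2 ratios were 1.13 [1.07, 1.20] for Nfix, 1.12 [1.01, 1.23] for Nfic, 0.55 [0.48, 0.61] for Nfia and 0.41 [0.38, 0.44] for Nfib. At least 2-fold higher were 2 of 4 members, against 8.4% of 9700 genes, and 18.9% of genes were at least 2-fold lower. The median gene was at -0.34.

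The 23 mesenchyme clusters at E12.5 spanned 266 to 1298 CPM of Nfib, with a median of 825 CPM. The highest was led by Gria2, Isl1 and Irx3, of which the last 2 are transcription factor genes of the early limb. A cluster led by Hoxc5 and Lix1 had 1255 CPM and one led by Hoxb4 and Meis2 had 1133 CPM. Apart from a small cluster of 46 cells at 266 CPM [142, 455], the lowest was led by Maf, Runx2 and Runx3 at 455 CPM [410, 504]. Nfix spanned 61.3 to 226 CPM, highest in a cluster led by Col6a5 and Dkk2, and Nfic spanned 34.9 to 75.3 CPM.

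At E15.5 the 9 mesenchyme clusters spanned 447 to 1306 CPM of Nfib. The lowest was led by Twist2, Stmn2 and Irx1, with 447 CPM [407, 491], and it was also the lowest in Nfix at 204 CPM [177, 234] and in Nfic at 99.8 CPM. A cluster led by Twist2 and Scn1a at E12.5 was likewise low in Nfib, at 506 CPM [458, 557]. The cluster led by Ptx3 and Sfrp2 had the most Nfib, 1306 CPM, and the most Nfix, 397 CPM. In Nfix 8 of these 9 clusters lay above the highest E12.5 cluster, and in Nfic all 9 did.

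Sex and limb moved with Nfib in mesenchyme at E12.5. Mesenchyme cells with a UMI of a Y-linked gene but none of Xist (male, 1215 cells) had 1019 CPM [984, 1055] of Nfib, and cells with Xist alone (female, 4413 cells) had 747 CPM [731, 763]. At E15.5 the same groups had 1093 CPM [1056, 1131] against 1117 CPM [1098, 1137]. The log2 ratio between ages was therefore 0.10 [0.03, 0.17] in male cells and 0.58 [0.54, 0.62] in female cells. Tbx5, the forelimb gene, was at 106 CPM in the male and 76.6 CPM in the female cells at E12.5, and Tbx4, the hindlimb gene, at 29.8 and 74.5 CPM, so sex and limb came together in these cells. Cells with Tbx5 and neither Tbx4 nor Pitx1 had 921 CPM [879.6, 964] of Nfib at E12.5, and cells with Tbx4 or Pitx1 and no Tbx5 had 753 CPM [735, 772]. At E15.5 these were 1146 and 1142 CPM. The part of sex or limb in this was not tested.

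**Figure D3:**
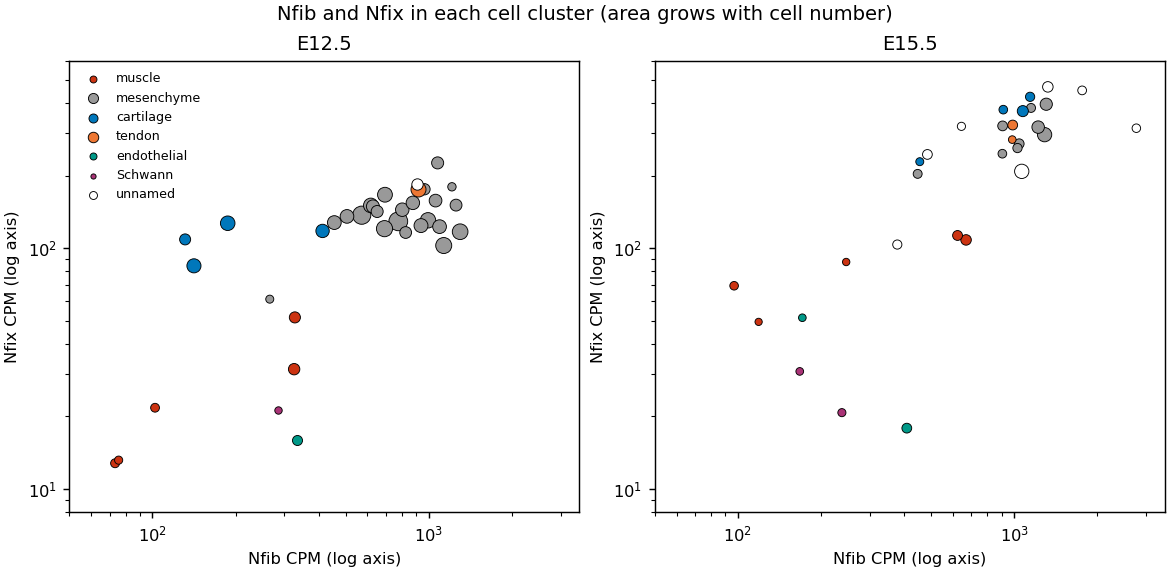
Nfib against Nfix in CPM (log axes) for the clusters of 6 named classes and for unnamed clusters at E12.5 (left) and E15.5 (right), with area growing with the number of cells. Endothelial and Schwann clusters sit low in Nfix for their Nfib, and the E15.5 mesenchyme, cartilage and tendon clusters sit above 200 CPM of Nfix.

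In cartilage all 4 members were higher at E15.5, by an amount that depended on how the class was drawn. In 1294 cells at E12.5 Nfib was at 210.5 CPM [195, 226], and in 402 cells at E15.5 it was at 999.6 CPM [965, 1035]. Nfia was at 63.4 CPM [55.3, 72.4] against 250.0 CPM [233, 268]. Cartilage thus lay beside muscle at E12.5 and beside mesenchyme and tendon at E15.5 in both genes.

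Nfix was at 108 CPM [97.6, 119.8] against 374 CPM [353, 396], and Nfic at 50.1 CPM [42.9, 58.1] against 164 CPM [151, 179]. The log2 ratios were 2.25 [2.13, 2.37] for Nfib, 1.98 [1.76, 2.20] for Nfia, 1.79 [1.62, 1.96] for Nfix and 1.71 [1.46, 1.97] for Nfic. All 4 members were at least 2-fold higher, against 8.4% of 9542 genes, with 13.7% at least 2-fold lower and a median of -0.25. Nfix exceeded Nfia in cartilage at both ages, which in muscle it did not. At equal depth the E12.5 cartilage shares were 28.6% for Nfib, 19.7% for Nfix, 12.3% for Nfia and 9.83% for Nfic. Each lay inside the interval of the E12.5 erythroid cells, so these starting levels are not told from background by that measure. In CPM only the E12.5 cartilage interval of Nfib lay wholly above the erythroid interval of its gene, [57.0, 183]. The 50.1 CPM of Nfic lay above its erythroid interval of [0.209, 45.9], but the intervals overlap.

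The class did not hold the same kinds of cells at both ages. The 10 cartilage markers summed to 12130 CPM at E12.5 against 5899 CPM at E15.5, while the 9 mesenchyme markers, none at 0, summed to 1696 and 4719 CPM. At E15.5 it held 189 cells of a cluster led by Gdf5, a joint gene, and the E12.5 clusters led by Gdf5 were classed as mesenchyme. Clusters led by Matn1, a cartilage matrix gene, allow a closer match. They had 131 and 141 CPM of Nfib at E12.5 against 455 CPM [391, 527] at E15.5, a log2 ratio of 1.73 [1.44, 2.01]. Within them Nfic had a ratio of 1.68 [1.16, 2.18], Nfia 1.51 [0.93, 2.07] and Nfix 1.28 [0.89, 1.66], in 561 and 44 cells. When both libraries were clustered together, 46 cartilage cells were left at E15.5 and the ratio was 1.40 [1.15, 1.65] for Nfib and 0.91 [0.39, 1.41] for Nfia. In barcodes gated by their markers alone (3804 and 258 cells) the ratio was 0.76 [0.68, 0.84] for Nfib and 0.67 [0.50, 0.84] for Nfia, below the gated muscle values of 1.55 and 1.84. The Matn1 comparison was chosen after seeing the data.

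**Figure D4:**
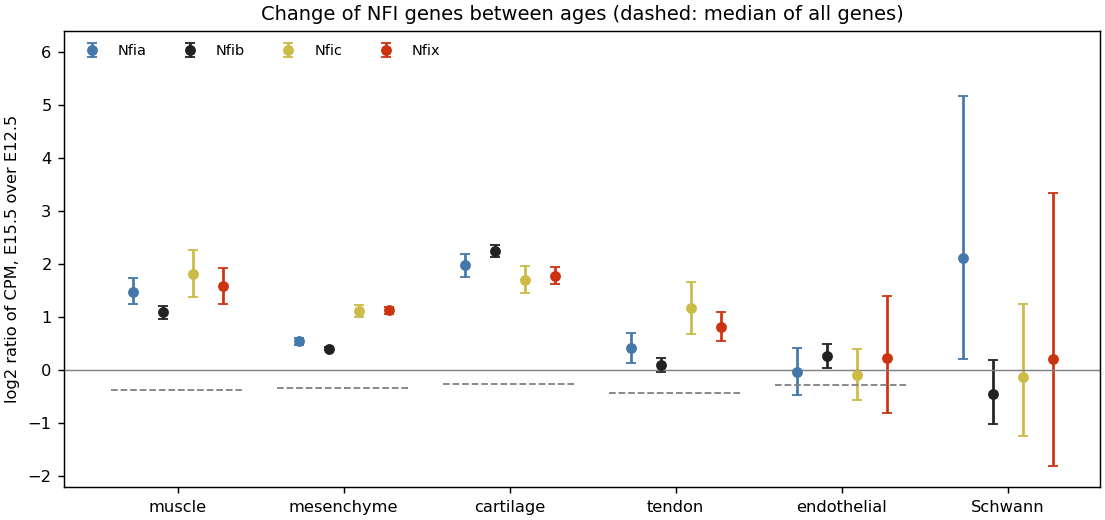
Log2 ratio of CPM at E15.5 over E12.5 for the 4 genes in 6 classes, with 95% intervals from the UMI counts; dashed lines mark the median of all genes with at least 10 CPM. Muscle and cartilage have all 4 points above 1, and Schwann intervals are wide since the E12.5 class had 23 cells.

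The tendon class, marked at both ages by the transcription factor gene Scx and by Mkx, Thbs4 and Fmod, had levels near mesenchyme. Tnmd, a gene of maturing tendon, had 6 UMIs in the class at E12.5 (7.63 CPM, with 3.29 CPM in mesenchyme) and was at 1679 CPM at E15.5, and Kera was lower than in mesenchyme at E12.5 (26.7 and 35.9 CPM). Nfib was at 917 CPM [851, 987] in 441 cells at E12.5 against 986 CPM [938, 1036] in 155 cells at E15.5, a log2 ratio of 0.10 [-0.02, 0.23]. Nfia was at 187 CPM [158, 219.8] against 249 CPM [225, 275], a ratio of 0.41 [0.14, 0.70]. Nfix was at 177 CPM [149, 209] against 312 CPM [285, 341], a ratio of 0.82 [0.55, 1.10]. Nfic was at 56.0 CPM [40.7, 75.1] against 126 CPM [109, 144], a ratio of 1.17 [0.69, 1.67], and was the 1 of 4 members at least 2-fold higher, against 9.16% of 9642 genes, with 28.1% at least 2-fold lower and a median of -0.43.

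When both libraries were clustered together the Nfia ratio turned to -0.25 [-0.47, -0.03]. The E12.5 tendon class was 1 cluster, with Tbx5 at 388 CPM. Its 6 tendon markers summed to 497 CPM, against 3296 CPM at E15.5, and its 10 cartilage markers, 1 of them at 0, to 5293 CPM, against 357 CPM at E15.5. In the tendon class the 8 erythroid markers, 1 of them at 0 at each age, summed to 253 CPM at E12.5 against 5281 CPM at E15.5. Mesenchyme at E15.5 had 288 CPM of them. The part of these marker levels in the tendon ratios was not tested.

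Endothelial cells (135 and 154) had ratios near 0, within wide intervals. Nfib was at 334 CPM [290.1, 382] against 402 CPM [375, 430.2], a log2 ratio of 0.27 [0.05, 0.49]. Nfia was at 91.0 CPM [69.0, 118] against 89.1 CPM [76.7, 103], a ratio of -0.03 [-0.47, 0.42]. Nfic was at 81.5 CPM [60.7, 107] against 76.5 CPM [65.1, 89.4], a ratio of -0.09 [-0.55, 0.39]. At E15.5 these intervals overlapped those of erythroid cells, [268, 409] for Nfib, [68.1, 148] for Nfia and [30.7, 90.5] for Nfic. At E12.5 Nfib and Nfic lay above the erythroid intervals, [57.0, 183] and [0.209, 45.9], and Nfia overlapped its own, [13.4, 96.2]. None of the 4 was 2-fold higher, against 6.52% of 8874 genes, or 2-fold lower, against 14.8%, and the median was -0.28. In the male cells of the class (29 at each age) Nfic was at 111 against 51.0 CPM from 15 and 25 UMIs, a ratio of -1.12 [-2.10, -0.10], and in the female cells at 0.17 [-0.44, 0.82].

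Nfix was the lowest member in endothelium, at 16.0 CPM [7.66, 29.4] against 18.8 CPM [13.3, 25.7]. The immune class at E15.5 had 17.3 CPM [9.47, 29.1] of Nfix and mast cells had 6.08 CPM [2.78, 11.5]. At 2000 UMIs, 3.36% of the E12.5 endothelial cells and 5.30% of those at E15.5 had an Nfix UMI, beside 3.51% [0.428%, 12.1%] of immune cells at E15.5. Endothelial Nfix at E15.5 thus overlapped the immune class and lay above mast cells. It lay below the 87.8 CPM [56.3, 131] of erythroid cells. The part of free RNA in it was not tested. Nfic was above Nfix in endothelial cells at both ages, and below it in mesenchyme.

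Schwann cells, marked by Sox10 and Erbb3, were 23 and 82. At E15.5 Nfib was at 211 CPM [183, 243], Nfia at 91.7 CPM [73.3, 113], Nfic at 68.2 CPM [52.5, 87.1] and Nfix at 24.5 CPM [15.54, 36.8]. Erythroid cells of that age had intervals of [268, 409] for Nfib, [68.1, 148] for Nfia, [30.7, 90.5] for Nfic and [56.3, 131] for Nfix. No Schwann interval lay above its erythroid interval at E15.5, so these levels are not told from that class. At E12.5 Nfib was at 286 CPM [188, 416] from 27 UMIs, above the erythroid interval of [57.0, 183]. Nfia and Nfix had 2 UMIs each. Nfia had a log2 ratio of 2.11 [0.22, 5.18], which was -0.35 with no doublets removed, and the other 3 intervals included 0. At this depth no difference of Nfib, Nfic or Nfix in Schwann cells was detectable. The 9 mesenchyme markers, 3 of them at 0 at E12.5, summed to 688 and 3055 CPM in the class. The 10 cartilage markers, 2 and 1 of them at 0, summed to 317 and 800 CPM. The part of these in the levels and in the Nfia ratio was not tested. Of the 6 genes named in the literature beside Nfia in glia, 5 had a UMI in the E12.5 class and Slc1a3, a glutamate transporter gene, had none. Of the 5 with a ratio, 1 was 2-fold higher (Mmd2, 1 and 44 UMIs) and 2 were 2-fold lower (Apcdd1 and Sox9), all with 4 or fewer UMIs at E12.5, so no direction is read from the list. Fabp7, a glial lipid-binding protein gene that was also a marker of the class, had a ratio of 0.80 [0.21, 1.44].

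Ranked over the 6 classes at E15.5, Nfia was highest in mesenchyme, then in cartilage and tendon, whose intervals overlapped, then in muscle, and lowest in Schwann and endothelial cells, which also overlapped. Nfib had the same order of its highest 4 classes, followed by endothelial and then Schwann cells. Nfix was highest in cartilage, then in tendon and mesenchyme, which overlapped. Muscle came next at 98.9 CPM, followed by Schwann and endothelial cells, whose intervals overlapped. Nfic was the most even. Its highest class, cartilage, stood 2.41-fold above its lowest, Schwann, against 3.15-fold for Nfia, 5.24-fold for Nfib and 19.9-fold for Nfix (cartilage over endothelial). At E12.5 Nfic was highest in endothelial cells, 81.5 CPM, and lowest in muscle, 19.8 CPM.

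Nfib led the family in 74 of 77 clusters (38 and 36), Nfic in 2 and Nfia in 1, all 3 of them immune. As a share of the family's UMIs, Nfib lay between 48.7% [46.1%, 51.3%] in E12.5 cartilage and 71.1% [54.1%, 84.6%] in E12.5 Schwann cells among the 6 classes. The Nfib share was lower at E15.5 than at E12.5 in muscle (67.1% and 59.4%), mesenchyme (68.3% and 61.1%) and tendon (68.6% and 59.0%), and higher in cartilage (48.7% and 55.9%). Among the 6 classes Nfix had its largest share in E12.5 cartilage, 25.1% [22.9%, 27.3%], and 3.06% and 3.20% in endothelial cells. In immune cells Nfic had 57.9% [33.5%, 79.7%] of 19 family UMIs at E12.5 against 69.1% [60.7%, 76.6%] of 139 at E15.5. Immune Nfic, at 113 and 119 CPM, lay above the 9.46 CPM of mast cells.

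**Figure D5:**
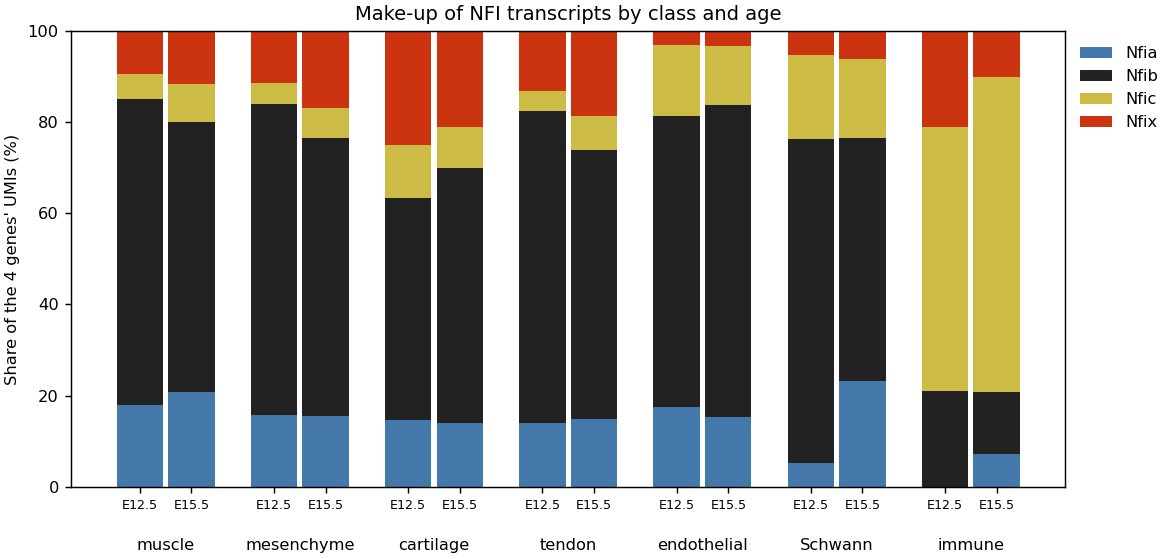
Share in percent of each NFI gene in the UMIs of all 4, by class and age. Nfib (black) is the largest part in the 6 tissue classes, Nfic (yellow) in the immune class, and Nfix (red) is thin in endothelial and Schwann cells.

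A list of 10 genes named in the literature beside Nfix in muscle was measured in the muscle class, chosen with earlier results of these data known. At least 2-fold higher at E15.5 were 2 of 10, Ckm and Prkcq (a protein kinase C gene, 4 and 28 UMIs), at least 2-fold lower were 2, Myh7 and Nfatc4, and 6 lay between, with a median of 0.05. Over all muscle genes the shares were 3.26% higher and 17.7% lower, so the count of lower genes is close to the background, and with 10 genes neither count is read as a result about the list. Ckm, the muscle creatine kinase gene, had 4 UMIs at E12.5 against 339 at E15.5, a ratio of 5.12 [3.76, 7.01]. Myh7, the slow myosin heavy chain gene, was at 68.2 and 3.10 CPM, a ratio of -4.46 [-5.23, -3.77]. Nfatc4, a calcineurin-regulated factor gene, was at 18.6 and 2.61 CPM, a ratio of -2.83 [-3.75, -1.99]. Junb, of the AP-1 family, had a ratio of 0.95 [0.79, 1.12] and Mstn, the gene of the growth inhibitor myostatin, 0.72 [0.49, 0.96]. Sox6, a factor gene of the fast fibre programme, had -0.69 [-1.11, -0.27]. Eno3, the muscle enolase gene, had a ratio of 0.08 [-0.20, 0.37], and Pax7 of 0.02 [-0.18, 0.22]. Cdh15, the M-cadherin gene, was at 149 and 122 CPM, a ratio of -0.29 [-0.47, -0.11]. Pax7 and Cdh15 were also markers that defined the class.

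The motif TTGGC was found before the start in the promoters of Eno3, Mstn, Cdh15, Nfatc4 and Junb and at 2 of 6 Sox6 starts, after the start in Pax7, and at none of the Ckm, Prkcq or Myh7 starts. No match in Ckm says only that these letters are not in its window. The Eno3 window is shown because it holds the motif while the interval of the gene's ratio between ages included 0. It spans chr11:70656926-70657175 on the plus strand (GRCm38.p6), with the motif 78 bases before the start in capitals.

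Eno3: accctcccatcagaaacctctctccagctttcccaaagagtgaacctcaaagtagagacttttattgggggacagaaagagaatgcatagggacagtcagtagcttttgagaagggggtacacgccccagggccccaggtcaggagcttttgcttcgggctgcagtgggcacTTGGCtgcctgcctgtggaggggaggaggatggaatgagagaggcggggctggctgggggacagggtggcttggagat

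Likeness between genes was described by Pearson's r of log2(CPM + 1) over 14 points, each a class of at least 50 cells at 1 age, among 7995 genes. The points share 2 libraries and differ in depth, so r is a description with no p. Nfia and Nfib were nearly parallel, with r = 0.99. Nfix had r = 0.83 with Nfia and 0.81 with Nfib, and Nfic had 0.56 to 0.59 with the other 3. These pairs differed by age, with 0.07 to 0.58 over the 5 points at E12.5. Over the 9 points at E15.5, which include mast cells, they had 0.67 to 0.88. Nfib was most like Morc4 (0.95), Ndn, the gene of the growth suppressor necdin (0.94), Fhl2 (0.94), Fbxl7 (0.93) and Sgce (0.93), and Nfia shared Ndn (0.94) and Morc4 (0.93) with it and had Trip6, Fndc4 and Fam92a at 0.93. Nfix was most like Gpr27 (0.96), Islr and Antxr1 (both 0.94), and Aebp1 and Ltbp3 (both 0.93), of which Ltbp3 encodes a binding protein of latent TGF-beta. Nfic was most like Tmem176b (0.90), Poglut3, Socs3, Bmyc (all 0.88) and Tmem165 (0.87). Among the least like were Atp6v1e1, Laptm5 and Sdf2l1 for Nfia (-0.93 to -0.92), Sdf2l1, Laptm5 and Taldo1 for Nfib (-0.94 to -0.89), Ndufs1 and Me2 for Nfic (-0.89 to -0.87) and Baz1a, Becn1 and Ipmk for Nfix (-0.91 to -0.90).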

How the data were processed

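Raw UMI counts per gene and barcode of both libraries were used as deposited. Cell Ranger 4.0.0, Seurat 4.3.0 and build mm10 are named in the submitters' processing notes, without their roles. The annotation release is not given in the sources used here. Cells with at least 500 genes and under 10% mitochondrial UMIs were kept. Doublets were scored against 2 simulated doublets per cell, and the highest scores were removed at 0.8% per 1000 barcodes, 1270 from the E12.5 library and 190 from the older one. Each library was clustered alone (2000 variable genes, 30 principal components, 15 neighbours, Leiden resolution 2.0) and neither the members, the linked lists, 25 proliferation genes, Xist nor 4 Y-linked genes could be variable genes. A cluster took a class from 14 marker lists if at least 3 markers were 2-fold higher than elsewhere (10 CPM added) and seen in 10% of its cells, with at least 1 among its top 10 genes. Clusters left over were called mesenchyme if at least 3 of its markers were 2-fold higher than in the pooled muscle, endothelial, blood, Schwann, epithelial, mural, melanocyte and neuron clusters and no other list had more of their top 10 genes. Unnamed were 204 and 957 cells.

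UMIs were summed per class and age. CPM have exact Poisson, shares exact binomial (Clopper-Pearson), and ratios exact conditional 95% intervals, and a count of 0 allows up to 3 counts. All of them cover counting error only. The scripts were tested on simulated data. Named genes are the members, the 2 linked lists, and for each member the 5 most and 3 least alike genes with at least 20 CPM in 3 points. One gene that this rule names is not reported here. Genes that lead a cluster were named to identify it. The members and lists were chosen with earlier results of these data known. Gene spans come from GENCODE vM21, in which 32235 of 32285 identifiers were found. The tools were leidenalg 0.10.2 with igraph 0.11.9, matplotlib 3.10.9, scikit-learn 1.9.0, pandas 2.3.3, scipy 1.17.1 and numpy 2.4.6 in Python 3.11.15.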

Additional observations from a re-analysis of the deposited data

Results flagged for a closer look

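In the epithelial class Nfia and Nfib had log2 ratios between ages of -1.95 and -1.23, opposite in sign to muscle, mesenchyme and cartilage. The difference was not tested. The class had 16 cells at E12.5, led by the basal keratin gene Krt5, and 25 at E15.5, led by Krtdap and Krt1 of differentiated epidermis. Nfib was at 793 CPM (566 to 1079) and 338 CPM (285 to 398), and Nfia had 5 and 11 UMIs.

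At E15.5, 3 unnamed clusters outside the comparisons had a higher summed NFI level than any named cluster, whose highest was 2138 CPM. A cluster of 66 cells led by Gm26917, Rian and Meg3 had 3897 CPM of the 4 members, of which 2766 CPM was Nfib. It had 2.70% ribosomal protein UMIs, 50440.2 CPM of the nuclear RNA Malat1 and a median of 2466 UMIs, and the part of these in its level was not tested. A cluster of 75 cells led by Nefm, Nefl and Tac1 had 2683 CPM, with 1761 CPM of Nfib and 453 CPM of Nfix. A cluster of 159 cells led by Cpm and Mecom had 2231 CPM, with 469 CPM of Nfix.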

How the results depend on the processing

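All 52 alternative ratios in muscle (0.83 to 2.48), 48 in mesenchyme (0.10 to 1.47) and 36 in cartilage (0.67 to 2.57) stayed above 0, as did 24 of 28 in tendon, 21 of 32 in endothelial cells (-0.66 to 0.55) and 17 of 32 in Schwann cells (-0.50 to 2.39). Splits by Top2a or Mki67, and by sex outside muscle and mesenchyme, are not among these. Scaled to the median gene, ratios were 1.86 (Nfia), 1.47 (Nfib) and 1.96 (Nfix) in muscle and 0.88, 0.75, 1.46 and 1.47 (Nfia, Nfib, Nfic, Nfix) in mesenchyme. Without haemoglobin, ribosomal protein and mitochondrial genes (122 genes) Nfib was at 1.27 in muscle, and the members at 0.67, 0.54, 1.25 and 1.26 in mesenchyme. In barcodes gated by markers Nfia and Nfib were at 1.84 and 1.55 in muscle, 0.44 and 0.27 in mesenchyme and 0.67 and 0.76 in cartilage, where the clusters gave 1.98 and 2.25. In male cells Nfib, Nfic and Nfix were at 0.86, 0.83 (-0.04 to 1.78) and 1.17 in muscle, and Nfia, Nfib and Nfix at 0.33, 0.10 and 1.02 in mesenchyme. In female cells Nfib and Nfix were at 1.29 and 1.94 in muscle, and Nfia and Nfib at 0.66 and 0.58 in mesenchyme. With no doublets removed Nfib was at 0.94 in muscle. At resolution 1.0 Nfib was at 0.49 in mesenchyme, and with 4000 variable genes at 0.34. Clustered together, Nfic was at 1.37 in mesenchyme. In alternatives chosen after seeing the data, Myog cells gave 1.20 (Nfia), 0.88 (Nfic) and 2.02 (Nfix), and Pax7 cells 2.48 (Nfic). Reversed were Nfia in tendon, at -0.55 in gated barcodes (4 and 34 cells) and -0.25 clustered together, Nfic in gated tendon at -2.09, and Nfia in Schwann cells at -0.35 with no doublets removed. The causes were not tested. Resolution 1.0 gave no tendon class at E12.5. No paired analysis was possible because each age had 1 library, and no library could be left out. Depth limits the Schwann, immune and erythroid values most.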

Other observations

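Mural cells, the pericytes and smooth muscle of vessels, were named at E15.5 alone, as 69 cells. They had 417 CPM (379 to 458) of Nfib, 137 CPM (116 to 162) of Nfia, 104 CPM (85.0 to 125) of Nfix and 73.9 CPM (58.3 to 92.3) of Nfic. Nfib and Nfic lay near the endothelial values of that age, and Nfix near that of muscle.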
